A study of Mus musculus with 6 samples.

Results

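Imprinted genes are expressed from 1 parental copy, the choice being set by DNA methylation placed in the germ line at control regions that each serve a cluster of neighbouring genes. Many act on growth before birth: Igf2 is a growth factor made from the paternal copy, Igf2r the receptor that clears it and Grb10 an adaptor that restrains insulin and IGF receptor signalling. In mesenchymal cells several are known as markers of an embryonic or progenitor state, and loss or gain of imprinting is known from many tumours. The 33 genes described here were taken from a list of mouse imprinted genes in 16 clusters, matched by symbol to the Ensembl identifiers of a table of 55471 genes. All 33 were found, and 20 of them, from 15 clusters, had enough reads to be tested. The counts do not separate the parental copies, so they give the level of each gene and not its imprinting.

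The counts came from total RNA of a cultured mouse undifferentiated pleomorphic sarcoma line, a malignant soft-tissue tumour of mesenchymal type, labelled as metastatic. There were 3 libraries of the wild-type control and 3 of the Setd1a knockout, numbered 1 to 3 in each group; Setd1a is the catalytic subunit of a complex that methylates histone H3 at lysine 4 of active promoters. The control titles also carry the tag AAV2 and the knockout titles a numeric tag, neither explained in the labels, and what the tags stand for cannot be told apart from the knockout. The labels say neither whether each group was 1 clone nor whether its replicates were separate cultures, so each p-value reflects no more than the variation among these libraries, part or all of which may be technical.

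Libraries held 17749533 to 18272622 counts. CPM are counts scaled to library size with TMM factors, and RPKM are CPM per kilobase of exon. Setd1a lay at 71.0, 75.3 and 73.5 CPM in control libraries and 53.2, 68.7 and 56.3 CPM in knockout libraries, so the transcript was present in every library and the groups did not overlap; the adjusted p was 0.426 in edgeR's quasi-likelihood test and 0.0913 with libraries paired by replicate number. Of its exonic bases, 52.3% are shared with other genes, which makes this level uncertain. Of 16 mesenchymal markers 15 were tested, Vim being the highest with 6146 CPM in control libraries, and the list summed to 10352 to 10446 CPM in control libraries and 8660 to 10127 CPM in knockout libraries. Markers of other cells were low: 3 of 15 macrophage markers (21.7 to 23.5 CPM summed in control libraries, 21.1 to 29.0 CPM in knockout libraries), 3 of 12 endothelial (16.6 to 19.3 and 19.3 to 23.0 CPM), 4 of 12 epithelial (53.2 to 91.7 and 50.6 to 97.1 CPM) and 1 of 10 myoblast markers (2.46 to 3.60 and 2.03 to 4.13 CPM) were tested. In the paired edgeR test Postn, a matrix protein gene of the mesenchymal list, fell from 1.48 ± 1.13 to 0.442 ± 0.292 CPM and the epithelial keratin gene Krt19 rose from 3.82 ± 1.61 to 6.77 ± 2.63 CPM (SD, n = 3), at adjusted p-values of 0.0363 and 0.0327, the only calls in these 5 lists; the part of such markers in the results on imprinted genes was not tested. Adgre1, C1qa, Erg, Cldn5, Myod1 and Myog had 0 counts. In bulk RNA, fewer cells of a type and less RNA per cell cannot be told apart.

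Of the imprinted genes, Plagl1 and Dlk1 rose in the knockout when libraries were paired by replicate number. No other member passed a test that used all 6 libraries. Plagl1 encodes a zinc finger transcription factor that restrains proliferation and activates other imprinted genes. Dlk1 encodes a transmembrane protein of preadipocytes and muscle progenitors that resembles the Notch ligands and holds back differentiation. Both calls come from edgeR's quasi-likelihood test with libraries of the same number treated as a pair, in which 2 of 20 members were higher and 0 lower at a Benjamini-Hochberg adjusted p under 0.05; over all 13044 genes tested, 1.43% were called higher, 0.851% lower and 2.28% in either direction. The same test without pairing, which was the main fit, called 0 members and 0% of all genes. At an unadjusted p under 0.05 it had 4 members, all higher (Plagl1, Peg3, Kcnq1ot1 and Nnat), against 10% of all genes in either direction and 5.5% higher; DESeq2 and limma-voom without pairing called 0 members.

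The promoter sequences of the pair that rose are shown with that of Grb10, the 1 tested member lower in the knockout in all 3 pairs. They are the bases before a RefSeq start (GRCm38.p6), up to the first base of any annotated exon, 5′ to 3′ on the gene's strand, with every CG in capitals. The Plagl1 stretch is chr10:13090582-13090690 (plus strand), the Dlk1 stretch chr12:109452573-109452822 (plus strand) and the Grb10 stretch chr11:12037421-12037670 (minus strand).
Plagl1: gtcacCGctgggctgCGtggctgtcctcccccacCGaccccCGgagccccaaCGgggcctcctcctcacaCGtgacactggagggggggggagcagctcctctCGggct
Dlk1: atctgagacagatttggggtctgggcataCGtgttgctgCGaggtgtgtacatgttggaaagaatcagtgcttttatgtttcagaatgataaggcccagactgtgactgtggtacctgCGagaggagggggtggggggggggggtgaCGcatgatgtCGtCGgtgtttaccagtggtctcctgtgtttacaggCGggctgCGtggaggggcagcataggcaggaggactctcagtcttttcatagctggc
Grb10: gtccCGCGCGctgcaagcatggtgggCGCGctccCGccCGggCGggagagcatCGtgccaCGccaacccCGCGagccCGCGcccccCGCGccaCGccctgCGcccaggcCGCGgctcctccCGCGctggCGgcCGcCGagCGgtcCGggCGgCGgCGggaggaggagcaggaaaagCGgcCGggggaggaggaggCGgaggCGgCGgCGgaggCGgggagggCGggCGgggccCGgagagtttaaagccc
The 109 bases of Plagl1 hold 7 CG, the 250 bases of Dlk1 hold 8 and the 250 bases of Grb10 hold 40. In the full windows of 300 bases, which run past the start, the counts were 26, 9 and 45, against a median of 7 (quartiles 3 and 20) over 32851 RefSeq windows. Grb10 has another RefSeq window (chr11:12027922-12028221) with 9 CG, so the stretch printed is the richer of its starts; its first transcribed bases matched no GENCODE transcript, whereas those of the other window did. The promoters of the genes that rose differ in CG content, at the 83.8th percentile for Plagl1 and the 55.4th for Dlk1. Windows were found for 27 of the 33 members, 43 in all; Cdkn1c, H19, Impact, Peg10, Rtl1 and Sgce had none in the table. The letters TGCCGC, the core bound by the imprint-protecting factor Zfp57, occurred on either strand in 10 of the 43 member windows, belonging to 9 members, and in 11.6% of all windows. The 9 members were Plagl1, Grb10, Nnat, Mest, Snrpn, Igf2, Meg3, Nap1l5 and Zim1, and did not include Dlk1. The letters do not occur in the stretches printed for Plagl1 and Grb10, so their matches take in bases of the windows that were not printed. Some members have several windows, which gives them more chances of a match, and the matching windows of Mest overlap each other. These matches are descriptions of letters and not of binding.

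Plagl1 (ENSMUSG00000019817, chromosome 10, 13060504 to 13131694, GRCm38, plus strand) lay at 5.26, 4.86 and 2.47 CPM in control replicates 1, 2 and 3 and at 12.4, 8.83 and 4.07 CPM in the knockout replicates. The means were 4.19 ± 1.51 and 8.43 ± 4.17 CPM (SD, n = 3). Replicate 3 was the lowest library of each group, and the groups overlapped because knockout 3 lay below controls 1 and 2. Within pairs the log2 ratio was 1.22, 0.85 and 0.70, so every knockout library lay above its same-numbered control. The paired edgeR test gave a log2 change of 0.97 ± 0.16 (SE), 1.95-fold, with an adjusted p of 0.0257; without pairing the adjusted p was 0.420. The call was lost without pair 3 (log2 change 1.04, adjusted p = 0.0627 in the paired edgeR test), a fit in which 0 genes passed, and held without pair 1 or pair 2.

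Dlk1 (ENSMUSG00000040856, chromosome 12, 109452823 to 109463336, plus strand) showed the same order of libraries, with 52.5, 31.6 and 26.6 CPM in control libraries and 84.6, 49.8 and 30.2 CPM in knockout libraries. The means were 36.9 ± 13.7 and 54.9 ± 27.6 CPM (SD, n = 3). Replicate 1 was the highest and replicate 3 the lowest in each group, and knockout 3 lay below controls 1 and 2. The log2 ratios within pairs were 0.69, 0.65 and 0.18. The paired edgeR estimate was 0.52 ± 0.11 (SE), 1.43-fold, with an adjusted p of 0.0494, just inside the threshold, and 0.646 without pairing. The call was lost without pair 2 (log2 change 0.46, adjusted p = 0.161) or pair 3 (0.66 and 0.0611) in the paired edgeR test. In the fit without pair 3, 0 of all genes passed.

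**Figure D1:**
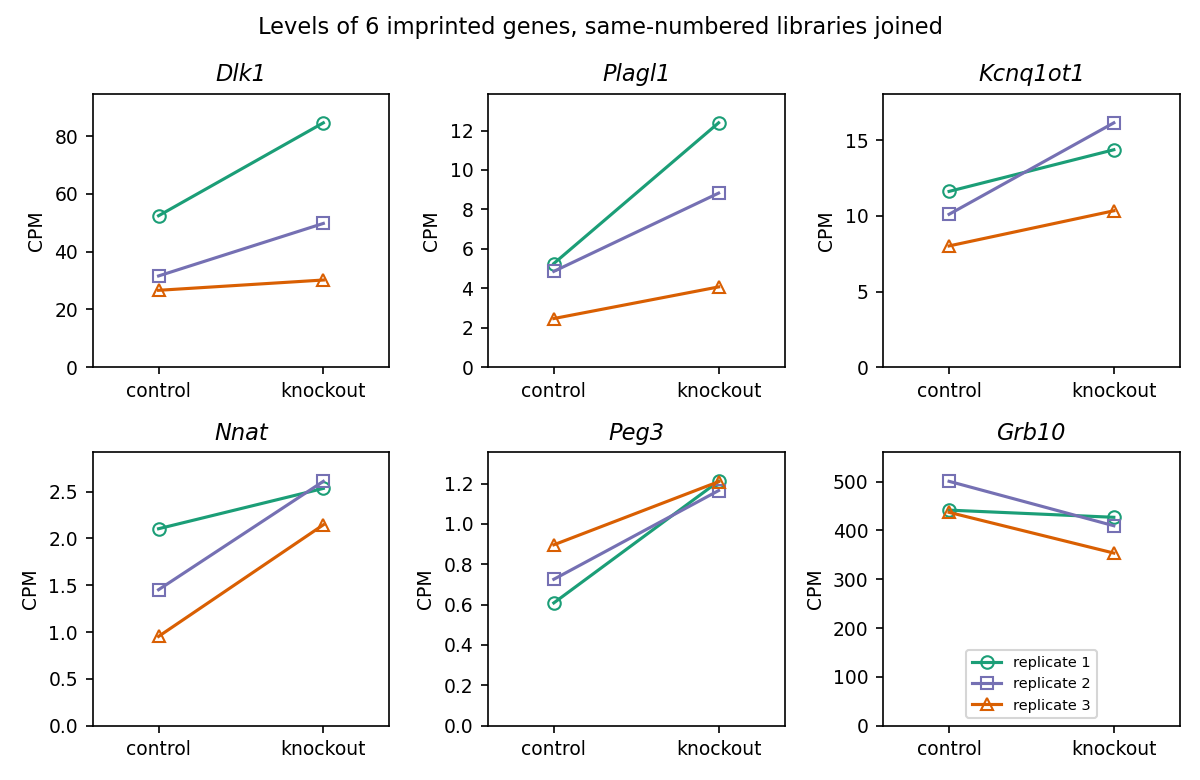
CPM (vertical axes, from 0, scaled per gene) in control and knockout libraries for 6 imprinted genes, with lines joining libraries of the same replicate number. Plagl1 and Dlk1 are higher in the knockout in each pair while their replicates lie far apart, and the Peg3, Nnat and Grb10 groups do not overlap.

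Dlk1 was the only member of its cluster on chromosome 12 with enough reads to be tested. The locus makes paternal mRNAs (Dlk1, the retrotransposon-derived Rtl1 and the thyroid hormone deiodinase Dio3) and maternal noncoding RNAs (Meg3, Rian and Mirg) that host a large group of miRNAs and snoRNAs. Meg3 held 7, 0 and 3 counts in control libraries and 4, 3 and 4 in knockout libraries, against 475 to 1537 counts of Dlk1. Rian held 0 to 4 counts in control libraries and 16, 4 and 4 in knockout libraries, and Mirg 3 to 9 counts in any library. Rtl1 had 0 to 2 counts in a library. Dio3 had 0 counts in each control and 3, 1 and 4 counts in knockout libraries; its groups did not overlap, but all but 1 of these libraries were at or under 3 counts, the upper limit that a count of 0 allows, so no fold is given. Of 114 genes annotated between Dlk1 and Dio3, 102 had 0 counts in all libraries, including 66 of 67 miRNA genes, and all 114 together held 20 to 45 counts in a library.

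The growth factor side of the IGF pair was not detected. Igf2 had 0 counts in all 6 libraries, and 0 counts allow up to 3 counts, or 0.165 to 0.168 CPM, for counting error only. Of its exonic bases, 64.5% are shared with Gm49394 and the antisense Igf2os, so reads there could have been left out of all 3 genes; Gm49394 and Igf2os held 1 count each in all libraries together. H19, the maternal noncoding RNA of the same cluster (chromosome 7, 142575529 to 142578143), was present at 4.09, 2.57 and 2.86 CPM in control libraries and 4.30, 1.72 and 4.84 CPM in knockout libraries. Replicate 2 was the lowest in each group, and the paired log2 change of 0.14 ± 0.24 (SE) had an adjusted p of 0.816 in edgeR.

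The receptor and adaptor were abundant. Igf2r, the mannose 6-phosphate receptor that carries IGF2 to lysosomes, held 216, 252 and 199 CPM in control libraries and 240.0, 265 and 184 CPM in knockout libraries. Its paired log2 change was 0.04 ± 0.08 (SE; adjusted p = 0.856, edgeR). Airn, the paternal noncoding RNA that silences the paternal Igf2r copy in embryonic tissue, lay at 5.07 ± 1.15 CPM in control libraries and 5.21 ± 0.393 CPM in knockout libraries (SD, n = 3; adjusted p = 0.901). Grb10 (chromosome 11, 11930508 to 12038683) held 442, 501 and 437 CPM in control libraries and 427, 409.6 and 354 CPM in knockout libraries. Every knockout library lay below every control, but knockout 1 was near control 3, and the paired log2 change of -0.21 ± 0.08 (SE) had an adjusted p of 0.186 in edgeR.

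Across the class, levels ran over a wide range, as the plot of CPM by library shows. Per length, Gnas was the highest at 121 ± 10.5 RPKM in control libraries (SD, n = 3). By mean RPKM over all 6 libraries it lay at the 97.3rd percentile of genes tested. In control libraries Gnas was followed by Grb10 at 50.6 ± 3.90, Slc38a4 at 26.3 ± 5.55 and Igf2r at 23.9 ± 2.92 RPKM. The last pair differed by less than their spread. Gnas encodes the stimulatory G protein subunit and Slc38a4 an amino acid transporter that is paternally expressed. The Gnas locus also makes the XLas and Nesp55 transcripts from other starts, and the counts do not separate them. Of the exonic bases of Gnas, 22.0% are shared with other genes. By mean CPM over all 6 libraries, 4 of the 20 tested members lay over 100, 10 lay between 5 and 100 and 6 lay under 5.

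**Figure D2:**
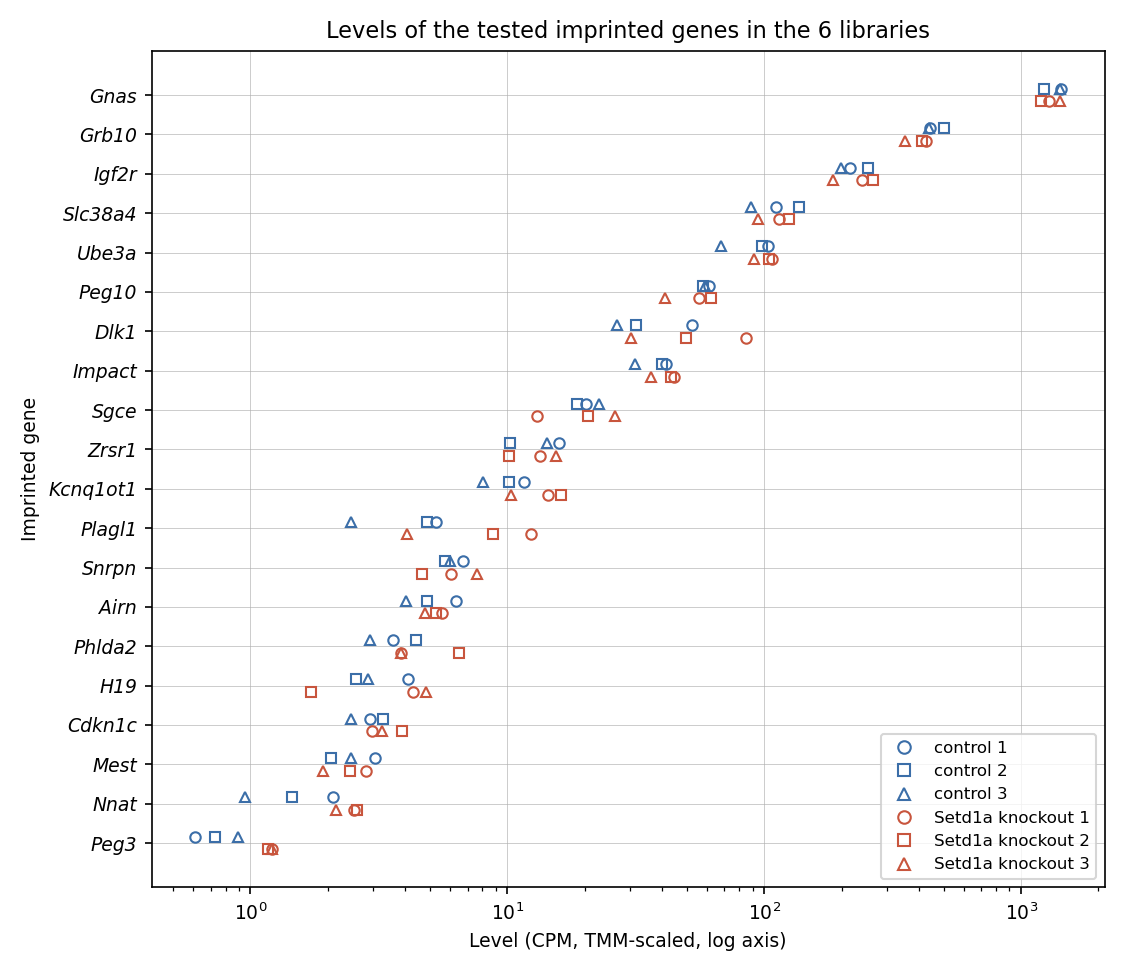
CPM (horizontal log axis) of the 20 tested imprinted genes in the 6 libraries; marker shape gives the replicate number and colour the group. Gnas lies between 1193 and 1435 CPM and Peg3 between 0.609 and 1.21 CPM, and for 17 of the 20 genes the groups overlap.

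The 13 members that were not tested were at or near the floor. Igf2, the zinc finger gene Zim1 and Magel2, a MAGE-family gene of the Prader-Willi region, had 0 counts in every library. The other 10 (Meg3, Rian, Mirg, Rtl1, Dio3, Usp29, Asb4, Ascl2, Ndn and Nap1l5) had 2 to 36 counts in all libraries together and at most 16 in any. Necdin (Ndn), a growth-restraining MAGE protein, ranged from 1 to 5 counts in control libraries and from 1 to 12 in knockout libraries. Each of the 20 tested members passed the low-count limit of 0.554 CPM in all 6 libraries, so none was tested because of 1 group alone.

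Of the Kcnq1 cluster on chromosome 7, 3 maternal protein-coding genes and a paternal noncoding RNA are among the members. Kcnq1ot1, the antisense RNA that silences its neighbours on the paternal copy, lay at 11.6, 10.1 and 8.01 CPM in control libraries and 14.4, 16.2 and 10.3 CPM in knockout libraries. It was higher in all 3 pairs, with log2 ratios of 0.30, 0.67 and 0.36, but the paired estimate of 0.45 ± 0.13 (SE) had an adjusted p of 0.0882 in edgeR; it passed when pair 1 was left out (0.0277). The CDK inhibitor gene Cdkn1c went from 2.90 ± 0.415 to 3.37 ± 0.468 CPM and Phlda2, a restrainer of placental growth, from 3.64 ± 0.749 to 4.73 ± 1.53 CPM (SD, n = 3), with adjusted p-values of 0.581 and 0.281 in the paired edgeR test. Ascl2, a transcription factor of trophoblast and intestinal stem cells, had 2 counts in all. Of the exonic bases of Cdkn1c, 30.7% are shared with the opposite-strand gene Gm44732, which held 1 count.

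Among tested members, Peg3 and Nnat were those with every knockout library above every control. The zinc finger gene Peg3 lay at 0.609, 0.726 and 0.897 CPM in control libraries and 1.21, 1.17 and 1.21 CPM in knockout libraries, a paired log2 change of 0.68 ± 0.30 (SE, adjusted p = 0.245, edgeR). These levels rest on 11 to 22 counts per library. Nnat, a small membrane protein of developing brain and endocrine cells, lay at 2.10, 1.45 and 0.953 CPM in control libraries and 2.53, 2.61 and 2.14 CPM in knockout libraries, 0.72 ± 0.24 (SE) with an adjusted p of 0.150. It passed the paired edgeR test when pair 1 was left out (adjusted p = 0.0452). Nnat lies within the opposite-strand gene Blcap, which went from 32.7 ± 1.27 to 39.65 ± 3.70 CPM without overlap of the groups (SD, n = 3). The strand setting is not known, and the part of Blcap reads in the Nnat level was not tested. With Grb10, 3 of the 20 tested members had groups that did not overlap, 2 higher and 1 lower, against 15.3% of all genes tested (7.49% higher and 7.77% lower); an exact two-sided permutation test of a single gene cannot go below p = 0.1 here, the value each of these 3 had.

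No other tested member passed the paired edgeR test with all 6 libraries. The retrotransposon-derived Peg10 held 61.2, 57.5 and 59.0 CPM in control libraries and 55.6, 62.3 and 41.0 CPM in knockout libraries, knockout 3 being the low one (adjusted p = 0.456, paired edgeR test). Its divergent neighbour Sgce, which encodes epsilon-sarcoglycan, held 20.2, 18.6 and 22.7 CPM and 12.995, 20.5 and 26.2 CPM; here knockout 1 was low and knockout 3 high, so the neighbours differed in which knockout library stood apart (adjusted p = 0.827 for Sgce). Mest, a marker of mesodermal and adipose growth, averaged 2.52 ± 0.491 and 2.39 ± 0.444 CPM (SD, n = 3), and 23.1% of its exonic bases are shared with the antisense gene Copg2. Ube3a, the ubiquitin ligase imprinted only in neurons, averaged 89.8 ± 19.2 and 101 ± 8.38 CPM, and Snrpn, a splicing protein of the same region, 6.13 ± 0.513 and 6.10 ± 1.46 CPM. Of the exonic bases of Snrpn 34.1%, and of Ube3a 27.3%, are shared with other genes. Impact, a regulator of the Gcn2 translation control kinase, averaged 37.7 ± 5.48 and 41.3 ± 4.41 CPM, and Zrsr1, a splicing factor-like retrogene, 13.4 ± 2.91 and 12.997 ± 2.65 CPM (SD, n = 3). Gnas averaged 1357 ± 118 and 1300.1 ± 113 CPM and Slc38a4 112 ± 23.7 and 111 ± 15.2 CPM (SD, n = 3). The adjusted p of these last 7 genes lay between 0.296 (Ube3a) and 0.995 (Slc38a4) in the paired edgeR test.

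**Figure D3:**
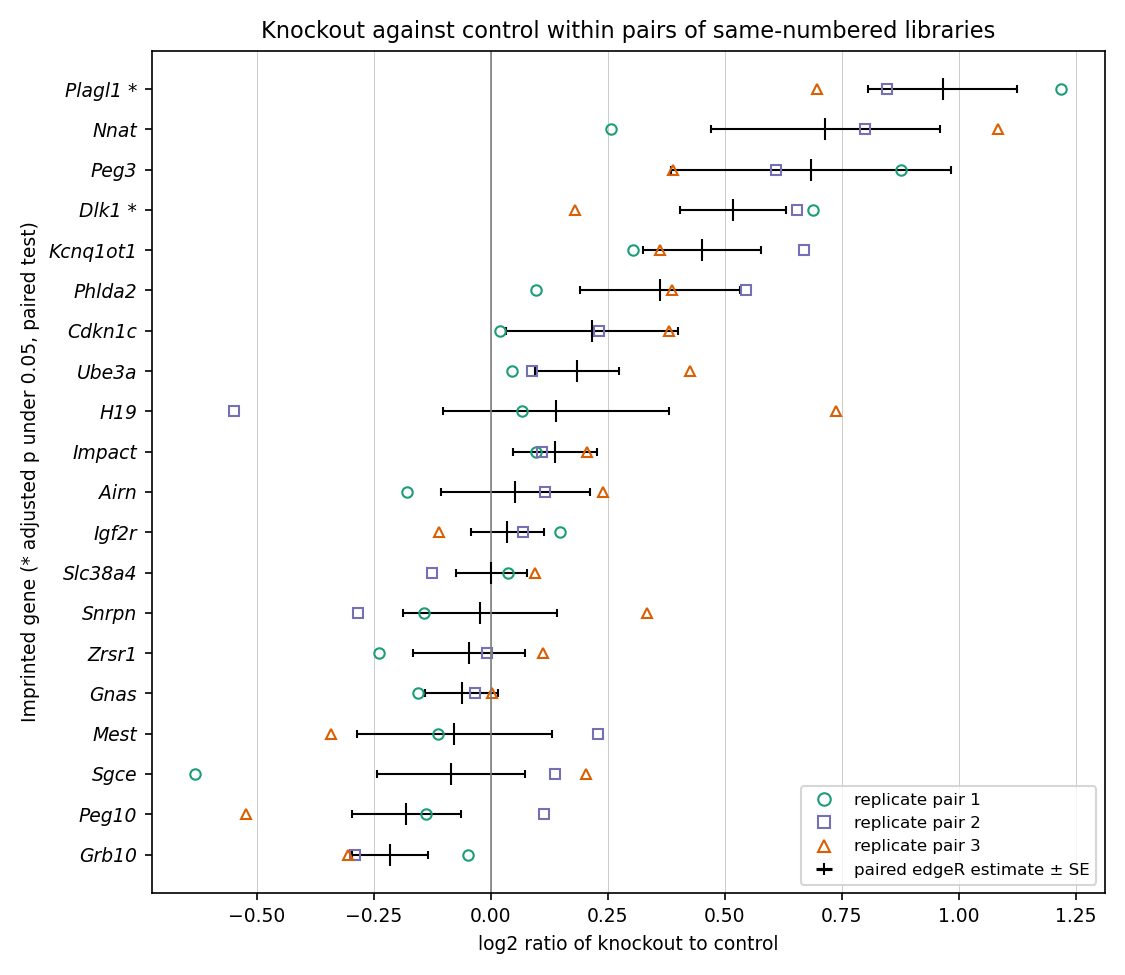
log2 ratio of knockout to control (horizontal axis) for the 20 tested imprinted genes, in each pair of same-numbered libraries (coloured markers) and as the paired edgeR estimate with its SE (black). Plagl1 and Dlk1, marked with an asterisk, have adjusted p-values of 0.0257 and 0.0494; Grb10 is the 1 gene below 0 in all 3 pairs.

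Over the 20 tested members, 12 had a log2 change above 0 and 8 below 0 without pairing. The median was 0.09, against 0.00066 over all genes tested, and the median size without sign was 0.16 against 0.13. In pairs, 9 members were higher in all 3 and 1 was lower in all 3; over all genes, 19.9% were higher and 21.6% lower in all 3, 41.5% in either direction. The 9 were Plagl1, Dlk1, Peg3, Nnat, Kcnq1ot1, Phlda2, Cdkn1c, Ube3a and Impact, which come from 7 clusters. Among 13 tested members known as paternally expressed the median log2 change was 0.04, with 7 above 0. Among the 4 counted as maternally expressed (H19, Cdkn1c, Phlda2 and Igf2r) it was 0.20, with 4 above 0. H19 and Igf2r turned below 0 without some libraries. Grb10, known as maternally expressed outside neurons, was not counted with the 4 and had a log2 change of -0.21 without pairing. Ube3a (0.17, imprinted in neurons) and Gnas (-0.06, a complex locus) were in neither group.

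The members also varied with the replicate number. In 11 of 20, replicate 3 was the lowest library of each group, against 18.2% of all genes tested; these were Plagl1, Dlk1, Nnat, Kcnq1ot1, Phlda2, Grb10, Igf2r, Airn, Slc38a4, Ube3a and Impact. The same order held for 3 of 36 other tested genes reported as imprinted and for 12 of 27 imprint factors, so it was not shared by imprinted genes at large. Replicate 2 was the lowest of each group in 4 members (H19, Snrpn, Gnas and Zrsr1) and replicate 1 in 0. What a replicate number stands for is not given in the labels. For Dlk1 the distance between replicates 1 and 3 within control libraries, 52.5 against 26.6 CPM, was larger than the difference between the group means.

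The wider class gave 3 more calls, all higher. Its list was chosen with earlier results of these data known. The shares of all genes beside its counts are therefore description and no test of the class. Of 60 further symbols reported as imprinted in mouse, several only in placenta or brain, 58 were in the table and 36 were tested; 3 rose and 0 fell in the paired edgeR test, against 1.43% and 0.851% of all genes. Without pairing, edgeR called 0, with an unadjusted p under 0.05 met by 11 in the upward and 4 in the downward direction (10% of all genes in either direction, 5.5% upward); DESeq2 without pairing called Qpct and Ampd3, and edgeR without the low-count filter called Qpct. Qpct, which encodes glutaminyl cyclase, lay at 4.26, 3.29 and 3.08 CPM in control libraries and 7.54, 8.10 and 9.51 CPM in knockout libraries, 2.36-fold (adjusted p = 0.0209). Herc3, a HECT-domain ubiquitin ligase whose intron holds the imprinted Nap1l5, went from 5.24 ± 1.15 to 8.83 ± 0.511 CPM (mean ± SD, n = 3), with an adjusted p of 0.0363, while Nap1l5 itself held 0 to 2 counts per library. The AMP deaminase gene Ampd3 rose 1.59-fold (adjusted p = 0.0363), and Tnfrsf26, a TNF receptor-like gene beside the Kcnq1 cluster, had an adjusted p of 0.0550 at 0.651 ± 0.172 and 1.64 ± 0.162 CPM (SD, n = 3). In these 4 genes, named for having the smallest unadjusted p of the list, no knockout library overlapped a control. Of all 36 tested, 9 were higher and 2 lower without overlap, against 7.49% and 7.77% of all genes. The 3 calls were lost without pair 3 (adjusted p = 0.0640 for Qpct and Ampd3 and 0.0643 for Herc3), and those of Ampd3 and Herc3 also without pair 2 (0.0725 and 0.0811). In the fit without pair 3, 0 of all genes passed.

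**Figure D4:**
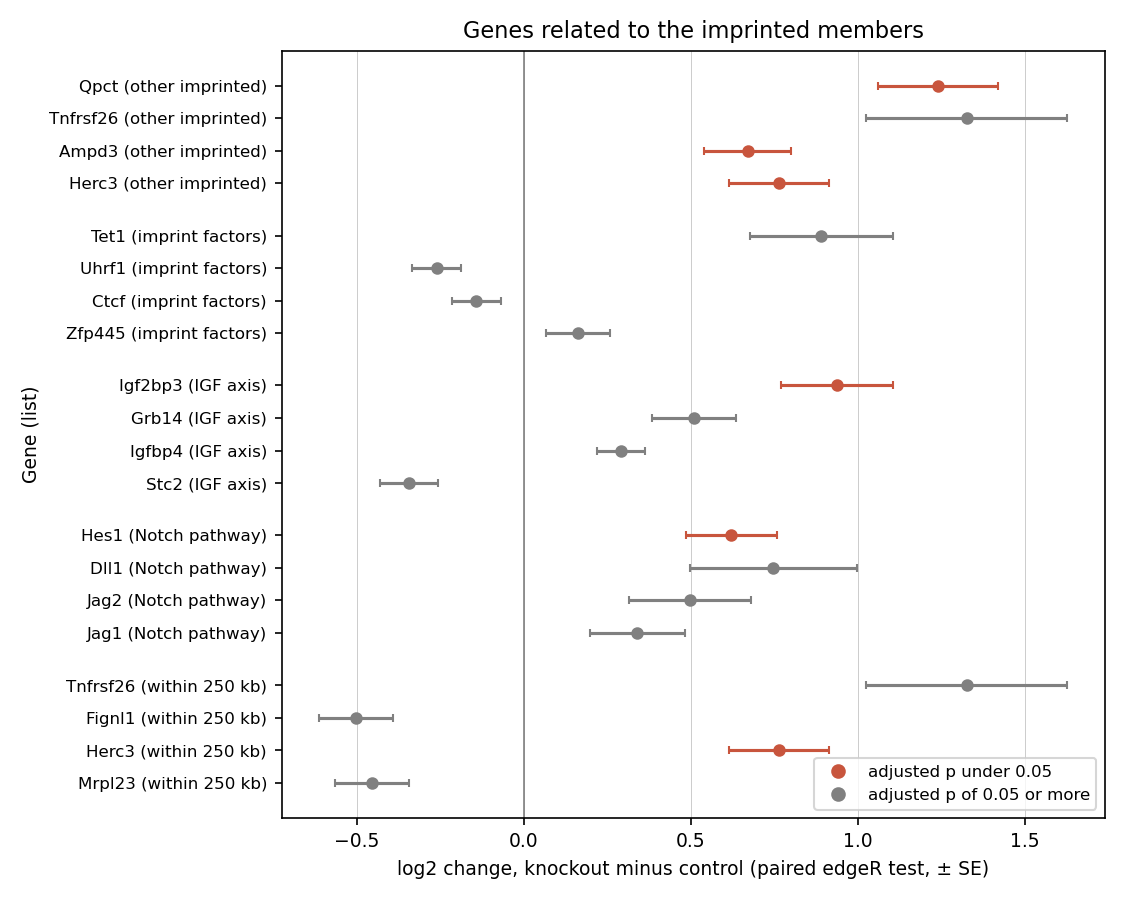
log2 change of knockout minus control (horizontal axis; paired edgeR test, bars are SE) for the 4 genes of smallest unadjusted p in each of 5 related lists. Qpct, Ampd3, Herc3, Igf2bp3 and Hes1 are coloured as passing an adjusted p of 0.05, all above 0; Tnfrsf26 and Herc3 appear in 2 lists.

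Genes near the members gave 1 call. Within 250 kb of a member, 60 protein-coding genes were tested. In the paired edgeR test 1 was higher (Herc3) and 0 lower, against 1.43% and 0.851% of all genes. Without pairing edgeR called 0. At an unadjusted p under 0.05 in that test, 7 of the 60 were above and 9 below the controls. Over all genes, 10% met this limit in either direction and 5.5% upward. The groups did not overlap in 6 of the 60 upward and 9 downward, against 7.49% and 7.77% of all genes. The median log2 change was -0.03. Near Grb10, the ATPase gene Fignl1 went from 41.4 ± 2.48 to 29.4 ± 3.80 CPM, and near H19 the mitochondrial ribosomal protein gene Mrpl23 from 16.7 ± 1.30 to 12.2 ± 1.71 CPM (SD, n = 3), with adjusted p-values of 0.0506 and 0.0651 in the paired edgeR test. Of 5 tested neighbours of Plagl1 (Sf3b5, Utrn, Stx11, Phactr2 and Ltv1), 0 passed it.

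Of 30 factors that keep or set imprints, 27 had enough reads to be tested and 2 had 0 counts in all libraries. Of the 27 tested, 0 passed either edgeR test. Over all genes, 2.28% passed the paired test and 0% the test without pairing, so few calls could be looked for among 27. At an unadjusted p under 0.05 without pairing, 1 was higher (Tet1) and 0 lower, against 10% of all genes in either direction and 5.5% higher. Tet1, which oxidises methylated cytosine, went from 1.58 ± 0.439 to 2.98 ± 1.30 CPM, and Uhrf1, which guides the maintenance methyltransferase to replicated DNA, from 173 ± 19.4 to 144 ± 14.7 CPM (SD, n = 3); the adjusted p-values were 0.0615 and 0.0932 in the paired test. Ctcf, the insulator protein that binds the H19 control region, went from 127 ± 7.70 to 116 ± 12.4 CPM and the imprint-protecting Zfp445 from 49.7 ± 8.66 to 55.1 ± 2.33 CPM (SD, n = 3), and their adjusted p-values were 0.328 and 0.401. Dnmt1, the maintenance methyltransferase, held 414 ± 25.7 and 386 ± 60.3 CPM, and Zfp57 21.4 ± 1.77 and 22.0 ± 3.66 CPM (SD, n = 3).

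In the IGF axis, 2 of 18 tested genes rose and 0 fell in the paired edgeR test (2.28% of all genes in either direction). Without pairing edgeR called 0, with 6 above and 1 below the controls at an unadjusted p under 0.05. Over all genes, 10% met this limit in either direction and 5.5% upward. DESeq2 without pairing called Igf2bp3, among 133 of all 13044 genes tested. Igf2bp3, an RNA-binding protein that binds Igf2 mRNA, lay at 3.82, 2.90 and 2.52 CPM in control libraries and 6.17, 6.05 and 5.39 CPM in knockout libraries, 1.92-fold (adjusted p = 0.0316). Htra1, a secreted protease that can cut IGF-binding proteins, rose 1.33-fold (adjusted p = 0.0361). Of the others with small p, the adaptor Grb14 had an adjusted p of 0.0676, Igfbp4 0.0676 and Stc2, a secreted inhibitor of an IGFBP protease, 0.0711, the last with a log2 change below 0. The receptor Igf1r held 114 ± 9.67 and 116 ± 26.1 CPM (SD, n = 3), and the ligand Igf1 had 3 counts in all libraries, too few to measure. Both calls were lost without pair 3 (adjusted p = 0.0882 and 0.0766), and that of Igf2bp3 without pair 2 (0.0704). In the fit without pair 3, 0 of all genes passed.

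For the Notch pathway, to which Dlk1 is related, 1 of 13 tested genes rose and 0 fell in the paired edgeR test, against 1.43% and 0.851% of all genes. Without pairing edgeR called 0, with 3 higher at an unadjusted p under 0.05 (5.5% of all genes). Hes1, a target repressor of Notch signalling, lay at 6.36, 5.42 and 5.997 CPM in control libraries and 10.9, 8.16 and 8.41 CPM in knockout libraries, 1.54-fold (adjusted p = 0.0494). The ligand genes Dll1, Jag2 and Jag1 had adjusted p-values of 0.141, 0.176 and 0.226. The Hes1 call was lost without any 1 of the pairs (adjusted p = 0.0593, 0.144 and 0.0903 without pair 1, 2 and 3). In the fit without pair 3, 0 of all genes passed. In a list of 13 tested embryonic growth and oncofetal genes, 1 rose (Igf2bp3, also in the IGF list) and 0 fell in the paired edgeR test. Over all genes, 1.43% rose and 0.851% fell. The unpaired edgeR test called 0 of the 13. Its unadjusted p was below 0.05 for Igf2bp3 and Igf2bp1, both upward, a limit met upward by 5.5% of all genes. In the paired test Igf2bp1 had an adjusted p of 0.0506 at 13.7 ± 4.28 and 20.7 ± 2.06 CPM (SD, n = 3), Sox9 0.198 and Hmga1 0.204.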

How the data were processed

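The 6 libraries are columns of 1 table of 55471 Ensembl genes, in which the authors deposited unnormalized read counts. The submitters' processing notes name the mm10 build and the tools STAR, featureCounts and DESeq. Versions, roles, annotation and strand setting were not given in the sources used here, so reads of overlapping genes cannot be told apart. Groups, replicate numbers and columns were matched from the sample titles. Symbols, positions and exonic lengths came from GENCODE M21 (GRCm38), where 55144 identifiers matched and 327 did not; promoter windows came from RefSeq (GRCm38.p6).

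The tests were run with edgeR 4.0.16 under R 4.3.3 (TMM scaling, the filter on low counts by group, which left 13044 genes, the two-sided quasi-likelihood test, Benjamini-Hochberg adjustment over all genes tested, threshold 0.05); log2 ratios within pairs used a prior count of 2. The fit without pairing was the main one and the replicate number as a block its alternative. Deviations from the group means correlated at 0.15, 0.46 and 0.38 for libraries of the same number. All lay above the limit of 0.1 set for treating numbers as pairs. Other combinations lay between -0.45 and 0.05. Deviations within a group cancel out, so positive same-number values push the others down, and this contrast is partly arithmetic. No label explains the numbers, and the pairing rests on these correlations. Alternatives used DESeq2 1.42.0, limma 3.58.1, other scalings and filters, and fewer libraries. No 2 libraries of a group agreed within sampling noise (chi-square per degree of freedom 21.6 to 40.0). The fits were tested on simulated counts.

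The members and lists were chosen with earlier results of these data known. Named were all members, Setd1a, and up to 4 genes of each other list with the smallest unadjusted p without pairing. Htra1, Postn, Krt19, Igf1, Igf1r, Dnmt1, Zfp57, Vim, Blcap and the markers at 0 counts were named after their values were seen. One count was worth 0.055 to 0.056 CPM, which limits the precision of low members.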

Additional observations from a re-analysis of the deposited data

How the results depend on the processing

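Of 438 changes of tested members under 22 alternatives, 385 kept their direction and side of the threshold, 19 passed it and 34 turned direction. With the replicate block, 298 genes passed in place of 0, with 2 members, 3 other imprinted genes, 2 IGF genes and 1 neighbour. With the block and DESeq2 size factors 317 genes and 2, 3, 3 and 2 of those groups passed; with upper-quartile factors 268 and 2, 3, 2 and 1; with no low-count filter 767 and 2, 9, 6 and 8, and 1 imprint factor, Tet1; with a minimum mean of 1 CPM 239 and 2, 3, 2 and 1; in DESeq2 314 and 2, 2, 2 and 2; in limma-voom 321 and 2, 3, 3 and 2. These 6 variants of the block were chosen after seeing the data, and the 2 members were Dlk1 and Plagl1 in each. Without the block, DESeq2 called 133 genes, 2 other imprinted genes and 1 IGF gene, and no low-count filter 74 genes and 1 other imprinted gene. Without 1 library, 0 to 31 genes passed, 31 without knockout 1. With the block and without 1 pair, 0 to 714 genes passed, with 0 to 4 members, 0 to 6 other imprinted genes, 0 to 3 IGF genes and 0 to 4 neighbours; 194 genes passed without pair 2 and 0 without pair 3. The cause was not tested.

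The log2 change of Slc38a4 turned above 0 with the block (0.0013), in limma-voom (0.0022), and with the block under upper-quartile factors (0.0037), a minimum mean of 1 CPM (0.011) and limma-voom (0.00041). That of Snrpn did so with upper-quartile factors (0.0010) and a minimum mean of 1 CPM (0.0060). Leaving out 1 library without the block, and 1 pair with it, gave H19 -0.077 to 0.53 and -0.21 to 0.42, Sgce -0.29 to 0.20 and -0.25 to 0.17, Mest -0.20 to 0.076 and -0.21 to 0.040, Igf2r -0.061 to 0.18 and -0.021 to 0.098, Airn -0.10 to 0.23 and -0.046 to 0.18, Slc38a4 -0.15 to 0.16 and -0.055 to 0.081, Snrpn -0.19 to 0.16 and -0.22 to 0.11 (0.048 without pair 1), Ube3a -0.0014 to 0.28 and 0.056 to 0.25, Gnas -0.13 to 0.0061 and -0.11 to -0.016, and Zrsr1 -0.20 to 0.11 and -0.14 to 0.057. The other 10 tested members kept 1 direction throughout.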
